A study of Mus musculus with 10 samples.

Results

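Secretoglobins are small secreted proteins that work as disulphide-linked dimers. The 40 genes described here are all protein-coding mouse genes of the RefSeq annotation of GRCm38.p6 whose symbol begins with Scgb, out of 21883 coding genes in all. Of these, 35 lay in a single cluster on chromosome 7, at chr7:31263736-34100837 (build mm10, 2.84 Mb), from Scgb2b1 to Scgb1b30. The cluster held 14 Scgb1b genes, 21 Scgb2b genes and no other coding gene, along with 13 Scgb pseudogenes, 39 further pseudogenes and 1 lncRNA. The 5 genes elsewhere were Scgb1c1 on chromosome 7, Scgb3a1 on chromosome 11, Scgb3a2 on chromosome 18, and Scgb1a1 and Scgb2a2 on chromosome 19. The family was selected on the difference in covered length between transgenic and control libraries in these same data, so that contrast is given as a description at these genes, without a test.

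The Scgb1b genes encode the alpha subunits, and the Scgb2b genes the beta-gamma subunits, of mouse androgen-binding proteins, which are secreted by salivary and lacrimal glands, bind steroids and take part in mate recognition. An alpha subunit pairs with a beta-gamma subunit, and the genes of both kinds often lie head to head. H3K4me3, trimethylation of lysine 4 on histone H3, marks the starts of active or poised genes, most strongly at promoters rich in CpG. Secretoglobins are best known from gland, airway and mammary secretions.

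H3K4me3 was mapped by ChIP-seq in NeuN-positive nuclei, that is neuronal nuclei, sorted from frozen CA1, a field of the hippocampus. There were 4 libraries from CaMKIIδC transgenic males and 4 from littermate control males, all aged 3 months, with 0.2 µg of chromatin and 1 µg of antibody per precipitation. CaMKIIδC is a splice form of a calcium/calmodulin-dependent kinase whose overexpression in heart muscle is used to produce heart failure in mice, and the comparison asks whether CA1 neurons of such animals carry altered H3K4me3. The labels name neither the promoter of the transgene nor its founder line. They say that control mice drank water with vehicle and that transgenic mice were split between vehicle and the deacetylase inhibitor vorinostat, and they give no drug label to the samples used here. The labels do not tie the libraries to separate animals. The p-values therefore reflect only how far these samples vary, and that variation may be technical.

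The letter that codes the group in the sample descriptions is the opposite of that in the names of the peak lists, while genotype and replicate number match in both, and samples were grouped by their titles. A peak list without read counts was deposited for each library, and the depth is therefore unknown. The lists held 51903 to 102285 peaks over 37.5 to 57.7 Mb, and transgenic replicate 1 stood apart with the most peaks and the longest total. The genome was covered over 49.4 Mb ± 5.78 (SD, n = 4) in transgenic and 41.5 Mb ± 2.67 in control libraries, a ratio of 1.19, or 1.12 without transgenic replicate 1. Peaks in all 8 libraries marked all 6 neuronal genes checked and 5 of 6 CA1 markers. They also marked 4 of 6 interneuron, 2 of 6 astrocyte, 2 of 7 oligodendrocyte, 2 of 6 endothelial, 1 of 5 choroid plexus and 0 of 6 microglial markers. In every marker list the ranges of the mean covered length overlapped between the groups, from 2371.0 to 2544.7 bp in control and 2410.8 to 2616.3 bp in transgenic libraries for neurons, down to 0 to 49.8 bp and 0 to 80.3 bp for microglia. All tested oligodendrocyte (2), endothelial (3) and choroid plexus (2) genes had log2 differences below 0, with medians of -0.23, -0.32 and -0.41 and 0 called, and the oligodendrocyte gene Cnp had 852 to 881 bp covered in the transgenic group and 1012 to 1076 bp in the control group, without overlap. The part of such cells in the results was not tested. A mark on a few nuclei and a weak mark on all of them cannot be told apart in such data.

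Secretoglobin promoters were poor in CpG and often carried a TATA word. RefSeq (GRCm38.p6) sequences from 250 bases before to 50 bases after the annotated start were found for 32 of the 40 genes, 29 of them in the cluster, and were not given for Scgb1b3, Scgb1b7, Scgb1b19, Scgb1b20, Scgb1b29, Scgb2b13-ps, Scgb1a1 and Scgb3a2. The 4 printed were chosen after their values were seen. First come a pair of alpha-subunit promoters that matched at 78.7% of positions without gaps, of which Scgb1b2 had a peak in all 8 libraries and Scgb1b12 in none. Scgb2b21 follows as a beta-gamma gene whose groups did not overlap, and Scgb2b10 as one of 3 genes with the same promoter. They lie at chr7:31291767-31292066 (minus strand), chr7:32333932-32334231 (plus strand), chr7:33520406-33520705 (minus strand) and chr7:32093903-32094202 (minus strand), and are printed 5′ to 3′ on the gene's strand with the word TATAAA in capitals.
Scgb1b2: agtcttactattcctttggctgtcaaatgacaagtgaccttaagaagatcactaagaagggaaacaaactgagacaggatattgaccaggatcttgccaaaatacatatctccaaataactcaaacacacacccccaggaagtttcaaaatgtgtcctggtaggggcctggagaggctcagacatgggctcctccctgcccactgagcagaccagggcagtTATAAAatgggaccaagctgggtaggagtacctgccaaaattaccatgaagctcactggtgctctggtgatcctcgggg
Scgb1b12: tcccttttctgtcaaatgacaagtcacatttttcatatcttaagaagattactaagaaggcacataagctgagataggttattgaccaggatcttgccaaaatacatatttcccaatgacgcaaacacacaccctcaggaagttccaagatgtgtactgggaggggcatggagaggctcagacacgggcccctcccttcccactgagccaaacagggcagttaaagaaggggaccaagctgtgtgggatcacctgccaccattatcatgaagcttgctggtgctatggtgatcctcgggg
Scgb2b21: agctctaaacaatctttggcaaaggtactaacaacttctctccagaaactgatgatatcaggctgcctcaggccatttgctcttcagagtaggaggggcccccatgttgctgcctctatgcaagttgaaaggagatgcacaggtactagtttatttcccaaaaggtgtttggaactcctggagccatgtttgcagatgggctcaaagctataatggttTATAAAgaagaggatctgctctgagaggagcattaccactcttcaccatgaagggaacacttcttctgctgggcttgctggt
Scgb2b10: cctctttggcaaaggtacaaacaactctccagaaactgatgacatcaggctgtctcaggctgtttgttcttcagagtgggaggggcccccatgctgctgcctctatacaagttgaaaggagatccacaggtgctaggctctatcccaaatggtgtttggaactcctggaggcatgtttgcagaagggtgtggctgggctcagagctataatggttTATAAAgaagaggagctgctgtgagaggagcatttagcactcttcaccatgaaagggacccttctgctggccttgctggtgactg
The word TATAAA, the core of the TATA box, began 29 bases before the start in Scgb1b2, 32 in Scgb2b21 and 35 in Scgb2b10, and was not in the printed stretch of Scgb1b12. On either strand (TATAAA or TTTATA) it occurred in 22 of 32 secretoglobin promoters (68.8%), against 13.3% of 17491 coding promoters of the same length. On the gene's strand and beginning 20 to 50 bases before the start, it occurred in 12 of 32 (37.5%), against 3.22%. A match of these letters is a description of the sequence and not of a bound site. The secretoglobin promoters held a median of 1 CpG and at most 4, while all coding promoters held a median of 13 and coding promoters with a peak in all 8 libraries a median of 21. Among the 5101 coding promoters with at most 4 CpG, 896 (17.6%) belonged to a gene with a peak in all 8 libraries. Of the 32 secretoglobin genes, 14 did.

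Peaks were scored per gene as the bases covered in a window of 2 kb to each side of the gene end, start or far end, with the better coverage. By this measure 16 of the 40 secretoglobin genes had a peak in all 8 libraries, 7 in some and 17 in none. Over all coding genes 61.8% had a peak in all 8 and 26.5% in none. The 16 genes comprised 6 alpha (Scgb1b) and 10 beta-gamma (Scgb2b) genes, all in the cluster. For 32 genes the annotation gave a strand, and the window was at the annotated start in 18 and at the far end in 14. In 14 of the 32 no library had a peak at either end, and the lower coordinate was used by default. Nothing is therefore read from that split. Among the 14 with both a strand and a peak in all 8 libraries the better covered end was the start in 10.

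The genes outside the cluster were unmarked. Scgb1c1, first known from nasal mucosa, Scgb3a1 and Scgb3a2, airway secretoglobins, and Scgb2a2, a mammaglobin of mammary gland, had 0 bp covered in each of the 8 libraries. Scgb1a1, which encodes the club cell protein uteroglobin of the airway, had 0 bp in 7 libraries and 200 bp in control replicate 4. That single peak lay at chr19:9082776-9082975 with a fold enrichment of 3.76, which is the authors' value for the peak.

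**Figure D1:**
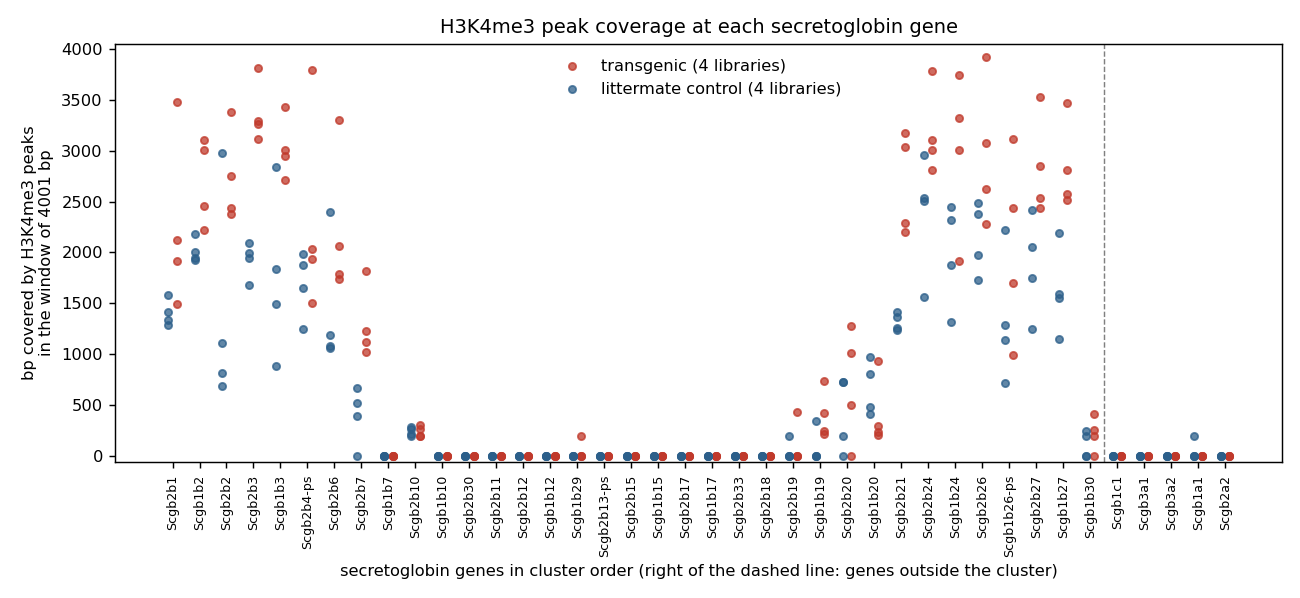
Bases covered by H3K4me3 peaks (y axis, bp) at each of the 40 secretoglobin genes (x axis, genome order within the cluster, then the 5 genes outside), 1 point per library, transgenic red and control blue. Genes at both ends of the cluster were covered and most genes of its middle were at 0, and transgenic replicate 1 was the highest of the 8 libraries at 20 genes.

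The cluster fell into covered outer stretches and a middle with almost no peaks, in control and transgenic libraries alike. Counted in 29 successive bins of 100 kb from the first gene, bins 1 to 4 carried a mean of 9.75 to 23.3 kb of peaks per bin in control libraries and bins 22 to 28 carried 14.6 to 26.6 kb. Over the whole genome the median bin carried 0.17 kb in control libraries and the 95th percentile was 6.69 kb, which 11 of the 29 cluster bins exceeded. In the middle, 11 bins stayed under 1 kb in every library and 5 of these had no peak in any. The bins from 1.4 to 1.8 Mb from the first gene, which hold Scgb2b15, Scgb1b15, Scgb2b17 and Scgb1b17, were among the latter. The Scgb pseudogenes followed the same layout, with 5 of 13 carrying a peak in all 8 libraries and 7 in none.

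**Figure D2:**
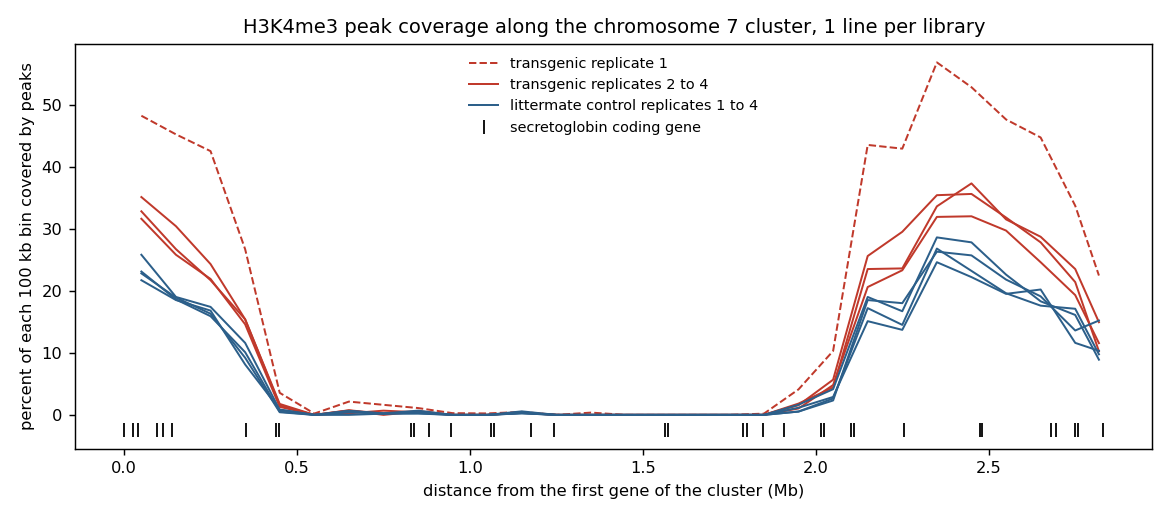
Percent of each 100 kb bin covered by H3K4me3 peaks (y axis) against distance from the first gene of the cluster (x axis, Mb), 1 line per library, with ticks for the 35 coding genes. Coverage was high at both ends, near 0 between about 0.5 and 1.9 Mb, and highest in transgenic replicate 1 (dashed) in the covered stretches.

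The unmarked middle was also where promoter sequences repeated each other. A promoter of 300 bases has 251 overlapping words of 50 bases, the read length of the study. In 21 of 32 secretoglobin promoters (65.6%) at least 1 such word recurred in another coding promoter, against 16.3% of all coding promoters. The median share of recurring words was 68.3% in the 14 secretoglobin genes with no peak in any library and 0.398% in the 14 with a peak in all 8. The unmarked 14 include Scgb1c1, Scgb3a1 and Scgb2a2, which lie outside the cluster and had 0% of words recurring. Scgb2b10, Scgb2b15 and Scgb2b17 had the same promoter, printed above, with 100% of words recurring, and Scgb1b15 and Scgb1b17 shared another. A read from a repeated word cannot be assigned to 1 copy, and how such reads were treated is not given in the sources used here. The part of repeated sequence in the missing peaks was not tested. Scgb1b12, with 0% of its words recurring, had no peak in any library, and Scgb2b10, with 100%, had one in all 8. Words were compared only with other coding promoters, so 0% does not show a sequence that is unique in the genome. The Scgb2b10 peaks lay mostly or wholly upstream of the promoter whose words were counted. Neither gene therefore settles the part of repeated sequence.

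**Figure D3:**
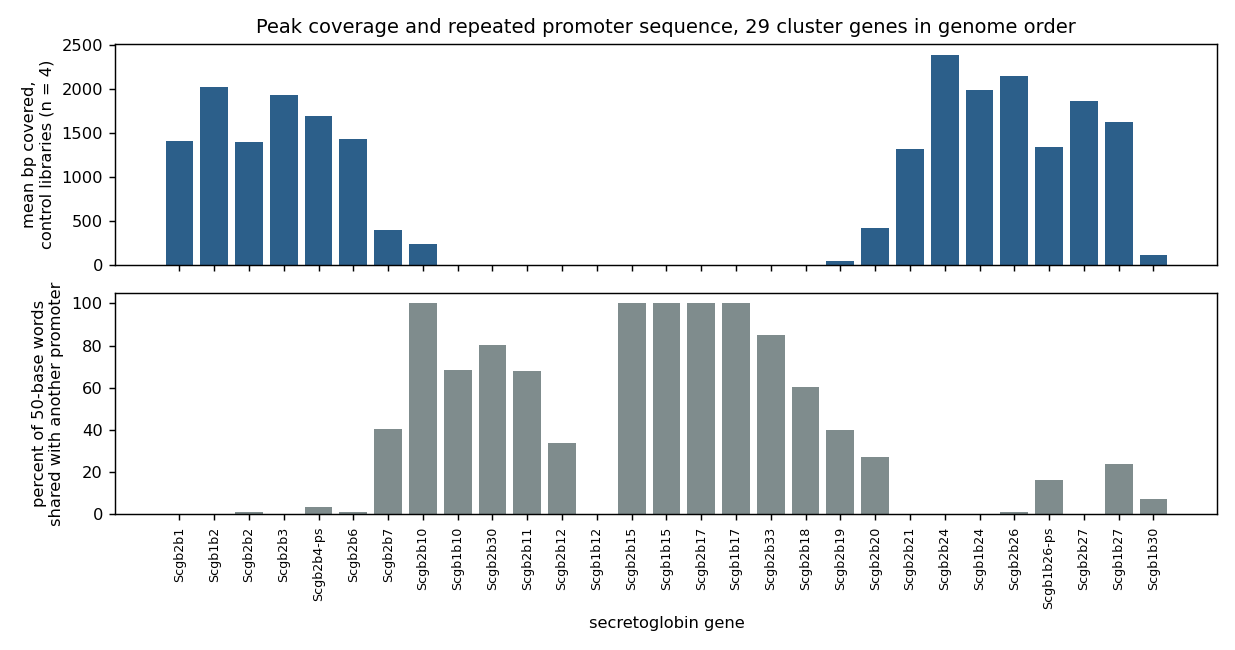
Mean bases covered per gene in the 4 control libraries (upper bars, bp) and percent of 50-base promoter words that recur in another coding promoter (lower bars) for the 29 cluster genes with a promoter sequence, in genome order. Tall lower bars stand mostly where upper bars are at 0, with Scgb2b10 and Scgb1b12 as genes that depart from this.

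Scgb2b10 was the only gene of the middle with a peak in all 8 libraries. Its windows held 200, 262, 307 and 200 bp in transgenic replicates 1 to 4 and 200, 263, 213 and 280 bp in control replicates 1 to 4. The values overlapped and were near the shortest peak widths. The 8 peaks lay between chr7:32094192 and chr7:32094538, upstream of the start, and only those of transgenic replicates 1 and 4 reached into the printed promoter, by 11 and 6 bases. Their fold enrichment ranged from 3.76 to 6.48 (authors' values). Scgb2b15 and Scgb2b17, which share the promoter, were at 0 bp in all 8 libraries.

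Most of the coverage in the cluster lay away from coding gene ends. Windows of 2 kb around both ends of the 35 genes made up 7.02% of the cluster's length and held 15.1% of its covered length in control and 14.4% in transgenic libraries. Within them 16.4% ± 1.3 (SD, n = 4) of bases were covered in control and 25.9% ± 5.73 in transgenic libraries, against 7.0% ± 0.408 and 11.8% ± 3.55 in the rest of the cluster. In the bins that hold the 16 genes marked in all 8 libraries, the windows of those genes were covered at 34.6% ± 2.67 in control and 53.0% ± 10.7 in transgenic libraries. The remainder of the same bins was covered at 13.8% ± 0.906 and 23.8% ± 6.97. The windows of those genes were picked for holding peaks, so their higher coverage was favoured by the choice. Merging the 8 lists gave 802 regions in the cluster. Of these, 161 had a peak in all 8 libraries, with a median length of 1883 bp, and 24 of the 161 lay within 2 kb of a coding secretoglobin gene.

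Around annotated starts, coverage rose only modestly above this surrounding level. Over the 29 cluster genes with a strand, chosen without regard to peaks, 24.5% of bases within 1 kb of the start were covered in control libraries and 12.3% at 5 to 10 kb. In transgenic libraries the values were 35.0% and 18.2%. The 10860 coding genes with a peak in all 8 libraries had 65.2% within 1 kb and 3.22% at 5 to 10 kb in control libraries, and 65.7% and 3.65% in transgenic libraries. For the 14 secretoglobin genes picked for a peak in all 8 libraries, the control values were 48.5% and 23.3%.

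**Figure D4:**
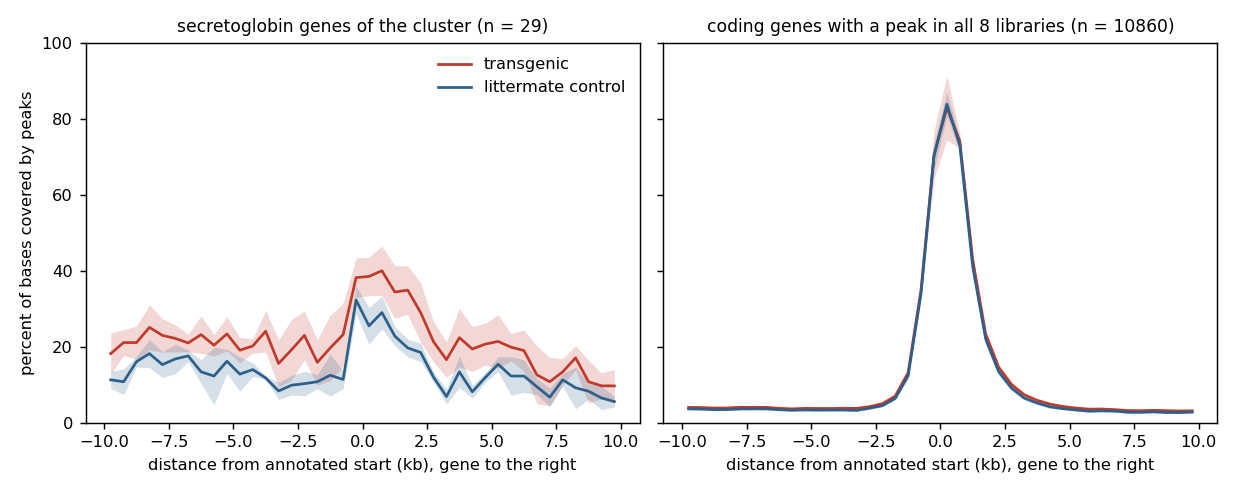
Percent of bases covered by peaks (y axis) against distance from the annotated start (x axis, kb, gene to the right), in bins of 500 bp, as the mean of 4 libraries per group with a band of 1 SD. Over 29 secretoglobin genes of the cluster the highest bins were 32.3% in control and 40.0% in transgenic libraries on a raised floor, while over 10860 coding genes marked in all 8 libraries a peak of 83.8% and 82.9% stood on a floor of about 3%.

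In 7 of the 8 libraries the peaks of the cluster were narrower than the library's median peak. Their median width per library was 296 to 313 bp in control and 338 to 391 bp in transgenic libraries, without overlap. The median over the whole list was 352 to 403 bp in control and 356 to 407 bp in transgenic libraries. In transgenic replicate 1 the cluster's median, 391 bp, was above the 356 bp of its whole list. The median fold enrichment (authors' values) was 4.86 to 5.43 in control and 4.95 to 5.34 in transgenic libraries, so the groups overlapped. It lay at the 34.9th to 40.7th percentile of the library's own list in control libraries and at the 32.0th to 53.9th in transgenic libraries. The highest fold of any peak in the cluster was 13.1, in transgenic replicate 1. The 3 regions with the highest median fold in control libraries were at chr7:33672486-33675101 (9.27, 62092 bp from Scgb2b24), chr7:33789544-33796487 (8.74, 44438 bp from Scgb1b24) and chr7:31350274-31361373 (8.55, overlapping Scgb2b3). All 3 had peaks in all 8 libraries. In the region over Scgb2b3, 9768, 6699, 6366 and 7925 bp were covered in transgenic replicates 1 to 4 and 4520, 5383, 5773 and 4931 bp in control replicates 1 to 4, without overlap.

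Over the whole cluster, transgenic libraries were covered further than control libraries. Peaks covered 518, 322, 289 and 318 kb in transgenic replicates 1 to 4 and 202, 212, 227 and 228 kb in control replicates 1 to 4. All transgenic values were above all control values, and transgenic replicate 1 was far above the other three. The means were 362 kb ± 105 (SD, n = 4) and 217 kb ± 12.5, a ratio of 1.66, or 1.42 without transgenic replicate 1. As a share of each library's total covered length, the cluster took 0.723% ± 0.119 in transgenic and 0.524% ± 0.0198 in control libraries, a ratio of 1.38. The number of peaks was 740 ± 85.4 against 574 ± 26.5, also without overlap. As a share of each library's peaks the cluster held 1.04% ± 0.134 in transgenic and 0.97% ± 0.111 in control libraries, with overlap and with transgenic replicate 1 the lowest of all 8 at 0.843%. Since the whole genome was covered 1.19 times as far in transgenic libraries and depth is unknown, the part of library depth or precipitation in the difference was not tested.

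**Figure D5:**
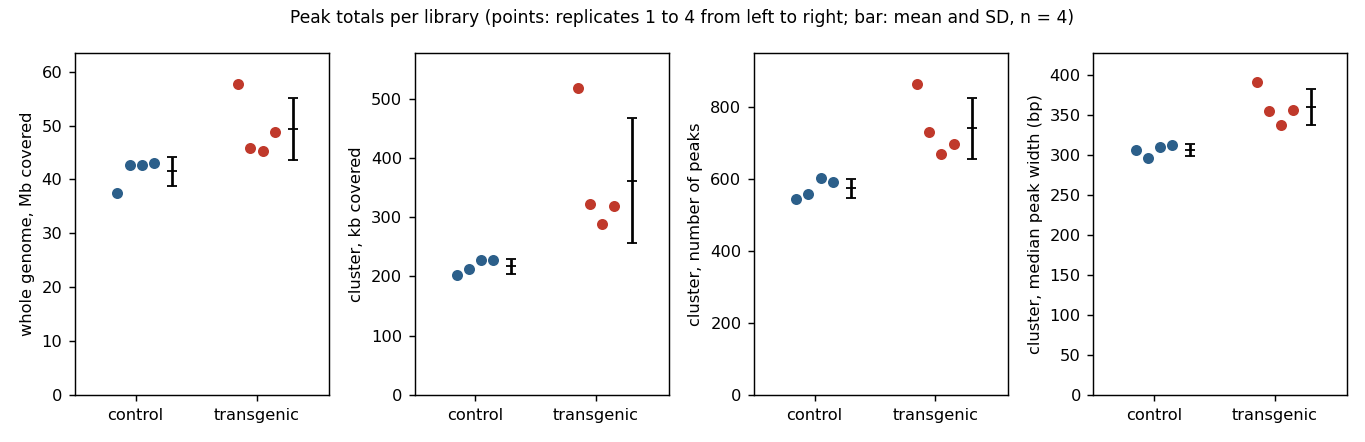
Whole-genome covered length (Mb), and covered length (kb), number of peaks and median peak width (bp) in the cluster, for the 4 control (blue) and 4 transgenic (red) libraries, with mean and SD (n = 4) as bars. All 4 measures were higher in every transgenic than in every control library, and transgenic replicate 1 was the highest throughout.

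The difference ran along both outer stretches. Of the 29 bins 17 had a peak in all 8 libraries. In 13 of these 17 all transgenic values were above all control values, and no bin had them below, against 6.64% of 10791 genome bins with a peak in all 8 libraries that had the transgenic values above. These 13 were bins 1 to 5 and 21 to 28. Since the contrast in covered length chose the family, nothing is read from this count of bins beside the genome share. In bin 24, which holds no coding gene, 56.8, 33.6, 31.9 and 35.4 kb were covered in transgenic replicates 1 to 4 and 24.6, 26.8, 26.3 and 28.6 kb in control replicates 1 to 4. Of the 161 regions with a peak in all 8 libraries, 39 had all transgenic values above all control values and 0 below. Only 3 of the 802 regions had a peak in every transgenic and no control library, and 0 had the reverse. The same counts were not made over regions of the whole genome, so nothing is read from these region counts. The 1 Mb before the cluster was covered over 70.0 kb ± 2.12 in transgenic and 60.8 kb ± 3.33 in control libraries, without overlap. The 1 Mb after it was covered over 28.2 kb ± 3.13 and 26.8 kb ± 3.24, with overlap.

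The 5 regions with the largest log2 ratio of mean covered length, a measure that favours regions with little control coverage, had a peak in at most 1 control library. At chr7:33532315-33534888, 11860 bp from Scgb2b21, 2376, 1281, 791 and 1302 bp were covered in transgenic replicates 1 to 4 and 0, 0, 767 and 0 bp in control replicates 1 to 4. In bp this region differed less, with means of 1437.5 and 192 bp, than the region over Scgb2b3, with 7689.5 and 5151.8 bp. At chr7:31702613-31703527, 252 bp from Scgb2b7, transgenic values were 764, 688, 0 and 269 bp and control values all 0. The other three, chr7:33827577-33828550, chr7:33977619-33978581 and chr7:31603976-31604493, had peaks in 3, 2 and 3 transgenic libraries and in no control library. In the opposite direction, chr7:33598055-33598363 and chr7:33391688-33391999 had peaks in 3 and 2 control libraries and in no transgenic library. Of these 7 regions, the first alone had all transgenic values above all control values.

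Among the genes themselves, the marked ones were wider in transgenic libraries on average. At 6 of the 40 genes all 4 transgenic values were above all 4 control values, and at 0 below. Over all 21883 coding genes 1.26% had the transgenic values above and 0.324% below, and over the 13534 with a peak in all 8 libraries 1.78% had them above. The 6 genes were Scgb1b2, Scgb2b3, Scgb2b7, Scgb2b21, Scgb2b27 and Scgb1b27. Since this contrast chose the family, nothing is read from the count. A total of 20 genes had a peak in at least 4 libraries and entered the limma fit over 14749 coding genes, on log2(bp + 100 bp). In that fit, with Benjamini-Hochberg adjustment at 0.05, 0 genes were called in either direction (0% of those tested), and 608 had an unadjusted p below 0.05. The 16 genes marked in all 8 libraries had log2 differences (transgenic minus control) from -0.73 to 1.12 with a median of 0.56, and the median over all tested genes was -0.008. Of the 20 tested genes 18 were above 0, though a gene could enter the fit with peaks in the transgenic libraries alone. Without transgenic replicate 1, 6 genes again had all remaining transgenic values above all control values, and 1 gene, Scgb1b20, had them below. Groups separate more easily with 1 library fewer, and the share over all coding genes was not counted for that split.

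Of the alpha-subunit genes, Scgb1b19 and Scgb1b3 had the largest log2 differences with 100 bp added, an order that changed with the setting. At Scgb1b19, 735, 218, 248 and 417 bp were covered in transgenic replicates 1 to 4 and 0, 0, 0 and 345 bp in control replicates 1 to 4, a log2 difference of 1.67 ± 0.66 (SE). The groups overlapped through control replicate 4, and the size depended on the bp added before the logarithm, with 3.9 at 10 bp and 0.61 at 500 bp. At 500 bp Scgb1b3 (0.69) and Scgb1b27 (0.65) were above it. At Scgb1b3, transgenic values were 3431, 2710, 2950 and 3011 bp and control values 1498, 1838, 2842 and 883 bp, a log2 difference of 0.83 ± 0.29. Here control replicate 3 reached the transgenic range, and without control replicate 4 the difference was 0.53. With peaks of −log10 q of at least 5, Scgb1b27 (1.25) and Scgb1b2 (1.24) were above Scgb1b3 (0.75). At Scgb1b27, transgenic values were 3467, 2514, 2809 and 2571 bp and control values 2189, 1152, 1554 and 1594 bp. Its groups did not overlap, with means of 2840.2 bp ± 437 (SD, n = 4) and 1622.2 bp ± 427 and a log2 difference of 0.77 ± 0.19.

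Other alpha-subunit genes had smaller or negative log2 differences. Scgb1b2, whose promoter is printed above, had 3106, 2218, 2453 and 3004 bp in transgenic replicates 1 to 4 and 2008, 2185, 1949 and 1930 bp in control replicates 1 to 4. Its groups did not overlap, though transgenic replicate 2 and control replicate 2 were close, and the log2 difference was 0.37 ± 0.12. Its window is at the far end, and at the annotated start the log2 difference was 0.29 ± 0.2. Peaks covered 300, 69, 216 and 300 bases of its printed promoter in transgenic replicates 1 to 4 and 120, 300, 300 and 200 bases in control replicates 1 to 4, so the promoter itself did not separate the groups. At Scgb1b24, transgenic values were 3742, 3011, 1918 and 3326 bp and control values 1312, 1879, 2317 and 2443 bp, overlapping through transgenic replicate 3. Scgb1b20 had the lowest log2 difference, -0.73 ± 0.45, with 931, 202, 289 and 235 bp in transgenic replicates 1 to 4 and 809, 484, 409 and 971 bp in control replicates 1 to 4. Transgenic replicate 1 lay among its control values and the other 3 below them, and without it the difference was -1.17. With windows of 1 kb or 5 kb to each side the difference at Scgb1b20 was 0.24 or 0.25, above 0.

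Of the beta-gamma genes, Scgb2b7, Scgb2b2, Scgb2b21 and Scgb2b3 had the largest log2 differences. Scgb2b7 lies at the inner edge of the first covered stretch. It had 1820, 1116, 1026 and 1223 bp in transgenic replicates 1 to 4 and 666, 515, 390 and 0 bp in control replicates 1 to 4, without overlap, a log2 difference of 1.79 ± 0.59. Without control replicate 4, which was at 0, it was 1.11, and it was 2.69 with 10 bp and 1.04 with 500 bp added. The window of Scgb2b7 is at its far end, and at its annotated start the log2 difference was 1.14 ± 0.61. Its peaks left the promoter itself free, since 0 of 8 libraries had a peak in the 300 bases around the start. At Scgb2b2, transgenic values were 3386, 2442, 2381 and 2752 bp and control values 683, 816, 2979 and 1105 bp. Control replicate 3 was again within the transgenic range, and the log2 difference was 1.12 ± 0.37.

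Scgb2b21 and Scgb2b3 had separate groups with a small spread among control libraries. At Scgb2b21, 3178, 2198, 2292 and 3034 bp were covered in transgenic replicates 1 to 4 and 1257, 1416, 1234 and 1365 bp in control replicates 1 to 4. The means were 2675.5 bp ± 502 (SD, n = 4) and 1318.0 bp ± 86.8, and the log2 difference was 0.93 ± 0.13. Peaks covered all 300 bases of its promoter printed above in the 4 transgenic libraries, and 140, 292, 0 and 300 bases in control replicates 1 to 4. At Scgb2b3, transgenic values were 3811, 3115, 3260 and 3289 bp and control values 1995, 2094, 1942 and 1684 bp. The means were 3368.8 bp ± 304 and 1928.8 bp ± 175, the log2 difference was 0.75 ± 0.11. The window of Scgb2b3 is at its far end, and at its annotated start the log2 difference was 0.23 ± 0.13.

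Scgb2b24, Scgb2b26, Scgb2b6 and Scgb2b4-ps were widely covered with overlapping groups. Scgb2b24 had the highest control mean of any secretoglobin gene, 2390.8 bp ± 590, with 2509, 2538, 1560 and 2956 bp in control replicates 1 to 4 and 3782, 2812, 3011 and 3102 bp in transgenic replicates 1 to 4. At Scgb2b26, transgenic values were 3920, 3078, 2279 and 2621 bp and control values 2376, 1979, 1730 and 2482 bp. At Scgb2b6, transgenic values were 3305, 2059, 1740 and 1785 bp and control values 1060, 1185, 2393 and 1079 bp. In Scgb2b6 control replicate 3 was far above the other control libraries, as it was in Scgb2b2 and Scgb1b3. Scgb2b4-ps, annotated as protein-coding despite its symbol, had 3797, 2033, 1932 and 1502 bp in transgenic and 1647, 1879, 1251 and 1989 bp in control replicates 1 to 4. At these 4 genes transgenic replicate 1 was the highest of the 8 libraries.

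Scgb2b27, which lies head to head with Scgb1b27, was the last of the 6 genes without overlap. It had 3531, 2849, 2534 and 2442 bp in transgenic replicates 1 to 4 and 1250, 1746, 2057 and 2419 bp in control replicates 1 to 4, a log2 difference of 0.58 ± 0.18. The lowest transgenic and the highest control library were close. Scgb2b1 and Scgb1b26-ps, also with a peak in all 8 libraries, had overlapping groups and log2 differences of 0.56 ± 0.24 and 0.55 ± 0.38. Scgb2b20 and Scgb1b30 were tested with peaks in 6 and 5 libraries, with 0.52 ± 0.94 and 0.58 ± 0.77. Scgb2b19 had a peak in 2 libraries and Scgb1b29 in 1, transgenic replicate 1, and neither was tested. The other 13 genes of the cluster were at 0 bp in all 8 libraries.

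Taken by subunit, the marked genes of both kinds were covered to a like extent. Averaged per library, the 6 marked alpha genes had 1567.2 bp ± 213 (SD, n = 4) in control and 2339.6 bp ± 451 in transgenic libraries. The 10 marked beta-gamma genes had 1580.6 bp ± 122 in control and 2480.6 bp ± 508 in transgenic libraries. Strand was not given for Scgb1b3, Scgb1b7, Scgb1b19, Scgb1b20, Scgb1b29 and Scgb2b13-ps, so pairs with these genes could not be counted. Among genes with a strand, 7 neighbouring pairs of a beta-gamma and an alpha gene lay head to head, with 4488 to 13820 bp between their starts. In 3 of these pairs, Scgb2b24 with Scgb1b24, Scgb2b26 with Scgb1b26-ps, and Scgb2b27 with Scgb1b27, both genes had a peak in all 8 libraries. In 3 others, of the middle, neither gene had a peak in any library, and in the pair of Scgb2b10 with Scgb1b10 only the former was marked.

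The 3 coding genes that follow the cluster had overlapping groups. Wtip, which encodes a LIM-domain protein and begins 8710 bp after the cluster, had 533, 852, 1225 and 1710 bp in transgenic replicates 1 to 4 and 640, 925, 574 and 1636 bp in control replicates 1 to 4. Its log2 difference was 0.16 ± 0.33 (SE, limma adjusted p = 1.0). Uba2, a subunit of the SUMO-activating enzyme, and Pdcd2l, which acts in ribosome assembly, had log2 differences of -0.04 ± 0.05 and 0.02 ± 0.09 (limma adjusted p = 1.0 for each). The difference between these genes and the secretoglobin genes was not tested.

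Other gland and pheromone families were rarely marked in every library. Of 65 genes for major urinary proteins, odorant-binding proteins and other lipocalins, exocrine gland-secreted peptides and glandular kallikreins, 2 had a peak in all 8 libraries and 30 in none. Their mean covered length per library was 85.2 to 260 bp in the transgenic group and 50.1 to 81.2 bp in the control group, so the groups did not overlap. The covered length of the whole genome did not overlap either, with a ratio of 1.19. At 1 of the 65 genes all transgenic values were above all control values, against 1.26% of all 21883 coding genes. In the limma fit 16 of the 65 genes were tested, 15 with a log2 difference above 0 and 1 below, with a median of 0.72 and 0 called. A gene needed a peak in at least 4 libraries to be tested, so it could enter through the transgenic libraries alone. Nothing is therefore read from this split or its median. The gene with the smallest p was Esp18, with 924, 579, 719 and 635 bp in transgenic replicates 1 to 4 and 0, 0, 435 and 526 bp in control replicates 1 to 4, a log2 difference of 1.72 ± 0.63 (limma adjusted p = 1.0). Esp1, which encodes a tear pheromone of male mice, followed with 1.38 ± 0.71 (limma adjusted p = 1.0). Of 14 genes of club cells and their regulators, 3 had a peak in every library, and the 3 tested were below 0 with 0 called, among them the C/EBP factors Cebpa at -0.12 ± 0.06 and Cebpd at -0.07 ± 0.08. Of 9 secretoglobin binding partners and steroid receptors, 4 had a peak in all 8 libraries, and of the 4 tested 0 were called. The estrogen receptor gene Esr1 was at 0.18 ± 0.22.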

How the data were processed

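H3K4me3 ChIP-seq peak lists of 4 transgenic and 4 control libraries were used, and 2 input samples were not analysed here. The submitters' processing notes name build mm10 and, among other tools, Bowtie2 2.0.2 and MACS2. No role or setting of a tool is stated. Each row deposited by the authors holds a position, a score, a fold enrichment, a −log10 p-value and a −log10 q-value. Replicates were not pooled, since each library has its own list. Without read counts no interval for depth can be given.

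Peaks were merged within a library and measured as covered bp. Coding genes peaking in 4 or more libraries were fitted on log2(bp + 100 bp), after subtracting the library median, with limma 3.58.1 in R 4.3.3 (trended, robust variance, checked on simulated data). The plan had the annotated start only as an alternative, where the promoter table gave a strand. A cluster was a run of at least 5 genes on chromosome 7 with gaps of at most 500 kb. Members, gene lists and settings were chosen with earlier results of these data known. Genes named were those outside the cluster, the 8 largest and 3 smallest log2 differences, the 5 widest in controls, the regions with the 5 largest and 2 smallest differences and the 3 highest folds, and the 2 smallest p of each list, of which 1 gene is not reported here. Replicate numbers were not taken as pairs, because deviations of same-numbered libraries correlated at -0.0632, -0.129, -0.162 and 0.166.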

Additional observations from a re-analysis of the deposited data

Results flagged for a closer look

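Of 51 groups of 4 libraries examined, 8 held 1 library far from the other 3, by Dixon's 95% limit on the gap as a share of the group's range. For normal values chance passes this limit about 1 time in 20. Some genes here were at 0 in most libraries and several measures overlapped, so that rate need not hold and no excess is read. The library far from the others was transgenic replicate 1 in 4 of the 8 groups. It had 102285 peaks, against 60388 to 66560 in the other transgenic libraries, and 518 kb covered in the cluster, against 289 to 322 kb. It had 23.5 kb covered in the 1 Mb after the cluster, against 29.2 to 30.0 kb, so it was the lowest there. It had 931 bp at the alpha-subunit gene Scgb1b20, against 202 to 289 bp. Control replicate 1 had 37.5 Mb covered in all, against 42.7 to 43.1 Mb. Control replicate 3 had 2393 bp at the beta-gamma gene Scgb2b6, against 1060 to 1185 bp. Control replicate 4 had 345 bp at Scgb1b19 and 200 bp at Scgb1a1, where the other control libraries had 0.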

How the results depend on the processing

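No coding gene was called in the limma fit under 10 of the 12 other settings tried, nor without any single library. Without the filter on low coverage 5 genes were called (4 higher, 1 lower), and with the ordinary moderated variance 5 (4 higher, 1 lower), none of them a secretoglobin gene. With the replicate number as a block 0 genes were called. The ratio of covered length over the cluster was 2.03 with peaks of −log10 q of at least 5 (291 against 143 kb), and 1.42 to 1.78 without 1 library. With an equal number of top ranked peaks per library the ratio was 1.56 (304 against 195 kb). The count of secretoglobin genes with all transgenic above all control values was 3 on shares of the library's total covered length. It was 6 to 10 without 1 library, the 10 without control replicate 3. Groups separate more easily with 1 library fewer, and the share over all coding genes was not counted under these settings. The count with a peak in all 8 libraries was 13 to 18, and 16 to 17 without 1 library. Of 15 named secretoglobin genes, 13 were above 0 under every setting that gave a value (log2 difference 0.05 to 3.9). Of the 15, 8 were named for the largest log2 differences in these same libraries, so nothing is read from that count. Among the 13, Scgb1b19 (annotated start, −log10 q of at least 5, equal number of top peaks) and Scgb1b3 (annotated start) lacked some settings. Scgb1b20 and Scgb2b10 changed sign under 8 settings in all. The causes were not tested. The lists hold no counts, so a gene at 0 bp may lie below the detection limit of its library.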
